A study of Mus musculus with 9 samples.

Results

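Stra8 and 8 genes of the retinoic acid pathway were followed across 3 culture media in mouse embryonic stem cells. The 9 genes are Stra8, the retinoic acid receptors Rara, Rarb and Rarg, the binding proteins Crabp1 and Crabp2, the enzymes Aldh1a2 and Dhrs3, and the retinoic acid hydroxylase Cyp26a1. They were taken by symbol from a table of 24819 genes, and were chosen by role with their FPKM values in these libraries already known, Stra8 for its level in EPSCM, one of the media. Their levels and differences are therefore given as a description, with no test. Of the 9 genes, 8 passed the filter used for the comparisons across all genes (at least 1 FPKM, fragments per kilobase of transcript scaled to the sequencing depth, in at least 3 libraries). Rarb did not pass, and Cyp26a1 passed only through the libraries of the medium in which it was highest.

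The cells were of the E14 line, a mouse embryonic stem cell line, grown on gelatin. They were kept in ES medium (DMEM with serum and leukaemia inhibitory factor, LIF), in 2iLIF (the defined N2B27 base with LIF and a pair of kinase inhibitors), or in EPSCM, expanded potential stem cell medium. Poly(A) RNA was sequenced from 3 libraries per medium, 9 in all. The labels give no genetic change in any group, and all groups share the one line, so the comparisons are between media in 1 line. The labels do not say if the 3 libraries of a group stem from separate cultures, so a p-value measures no more than their spread, part or all of which may be technical.

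Retinoic acid is made from vitamin A in stages. Retinol dehydrogenases such as RDH10 oxidise retinol to retinaldehyde, DHRS3 reduces retinaldehyde back to retinol, and ALDH1A2 turns retinaldehyde into retinoic acid. In the cytoplasm CRABP1 and CRABP2 bind retinoic acid, and CRABP2 carries it to the nuclear receptors RARα, RARβ and RARγ, which bind DNA as dimers with RXR at paired hexamers called response elements. Rarb, Cyp26a1 and Dhrs3 are well-known direct targets of these receptors, and CYP26A1 breaks retinoic acid down. Stra8 was named for its induction by retinoic acid. In germ cells its protein is needed for entry into meiosis, and the transcription factor DMRT1 is a known regulator of the gene.

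RefSeq promoter windows (GRCm38.p6, 250 bases before to 50 after a transcript start) were matched for 8 of the 9 genes, 14 windows in all, and not for Crabp2. The 3 below are shown because Stra8 had the widest difference between media and because Rarb and Cyp26a1 are the genes whose windows held a paired hexamer. Each line is the stretch before the start, 5′ to 3′ on the gene's strand. Capitals mark matches to the hexamer AGGTCA or its variants GGGTCA and AGTTCA and GGTTCA, to direct repeats of these with 5 bases between (the 5 bases included), or to ACANTGT, the core of the DMRT1 motif; both strands were searched. Stra8 lies at chr6:34920698-34920947 on the plus strand, Rarb at chr14:16575477-16575726 on the minus strand and Cyp26a1 at chr19:37697558-37697807 on the plus strand.
Stra8: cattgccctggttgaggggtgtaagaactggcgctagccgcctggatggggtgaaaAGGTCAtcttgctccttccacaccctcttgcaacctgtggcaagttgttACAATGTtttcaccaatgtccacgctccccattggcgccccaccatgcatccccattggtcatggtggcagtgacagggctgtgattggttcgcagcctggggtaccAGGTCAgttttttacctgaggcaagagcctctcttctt
Rarb: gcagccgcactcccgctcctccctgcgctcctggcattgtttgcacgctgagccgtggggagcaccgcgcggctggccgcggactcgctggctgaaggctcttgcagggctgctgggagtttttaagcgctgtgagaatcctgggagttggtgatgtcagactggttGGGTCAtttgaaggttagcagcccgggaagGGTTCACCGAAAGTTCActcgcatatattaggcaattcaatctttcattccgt
Cyp26a1: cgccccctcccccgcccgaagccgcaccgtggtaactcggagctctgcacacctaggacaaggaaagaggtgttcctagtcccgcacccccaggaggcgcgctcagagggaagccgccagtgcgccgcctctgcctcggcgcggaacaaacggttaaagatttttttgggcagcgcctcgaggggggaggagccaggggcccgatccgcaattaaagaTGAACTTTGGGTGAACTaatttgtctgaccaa

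Counted back from the start, the Rarb window held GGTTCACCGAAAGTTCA at -53 to -37. The Cyp26a1 window held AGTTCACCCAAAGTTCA on the opposite strand at -32 to -16, so that the line above shows its reverse complement. A direct repeat of this kind with 5 bases between was found in 32 of 32851 windows of all genes, or 0.0974%, and among the 8 matched genes only in these windows. The Stra8 window held single hexamers at -194 and -38, a match that 43.7% of all windows have, and ACAATGT at -145 to -139, a match to a motif found in 7.54% of them. The repeats with 1 or 2 bases between, found in 0.222% and 0.268% of all windows, were in none of the 14. The Stra8 stretch had a GC content of 54.8% and 5 CpG pairs, near the medians of all windows (52.4% and 6), whereas the Rarb stretch had 16 CpG pairs and the Cyp26a1 stretch 20. A match is a description of these letters, and no binding was measured.

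Stra8 was low in ES and 2iLIF and high in EPSCM. Its level was 2.72, 2.75 and 2.55 FPKM in the ES libraries, 3.08, 2.43 and 3.11 in 2iLIF, and 97.4, 95.9 and 98.1 in EPSCM. The EPSCM libraries lay close together and far above the other 6, and the ES and 2iLIF libraries overlapped. The means were 2.67 ± 0.106, 2.87 ± 0.386 and 97.1 ± 1.13 FPKM (SD, n = 3 each). EPSCM was 36.3 times ES and 33.8 times 2iLIF in mean level. On the log2(FPKM + 1) scale the difference was 4.74 ± 0.08 (SE) from ES and 4.67 ± 0.08 from 2iLIF, and 0.07 ± 0.08 between 2iLIF and ES. Among the 12330 genes tested, Stra8 ranked 2 from the top in EPSCM against ES and 4 in EPSCM against 2iLIF. In a rough estimate from the steps of the FPKM values, about 103 to 168 fragments stood behind the level in each ES and 2iLIF library, so the gene was detected there and was not at 0. In bulk RNA, a change in the share of cells that express a gene and a change in RNA per cell cannot be told apart, and this holds for every level given here.

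**Figure D1:**
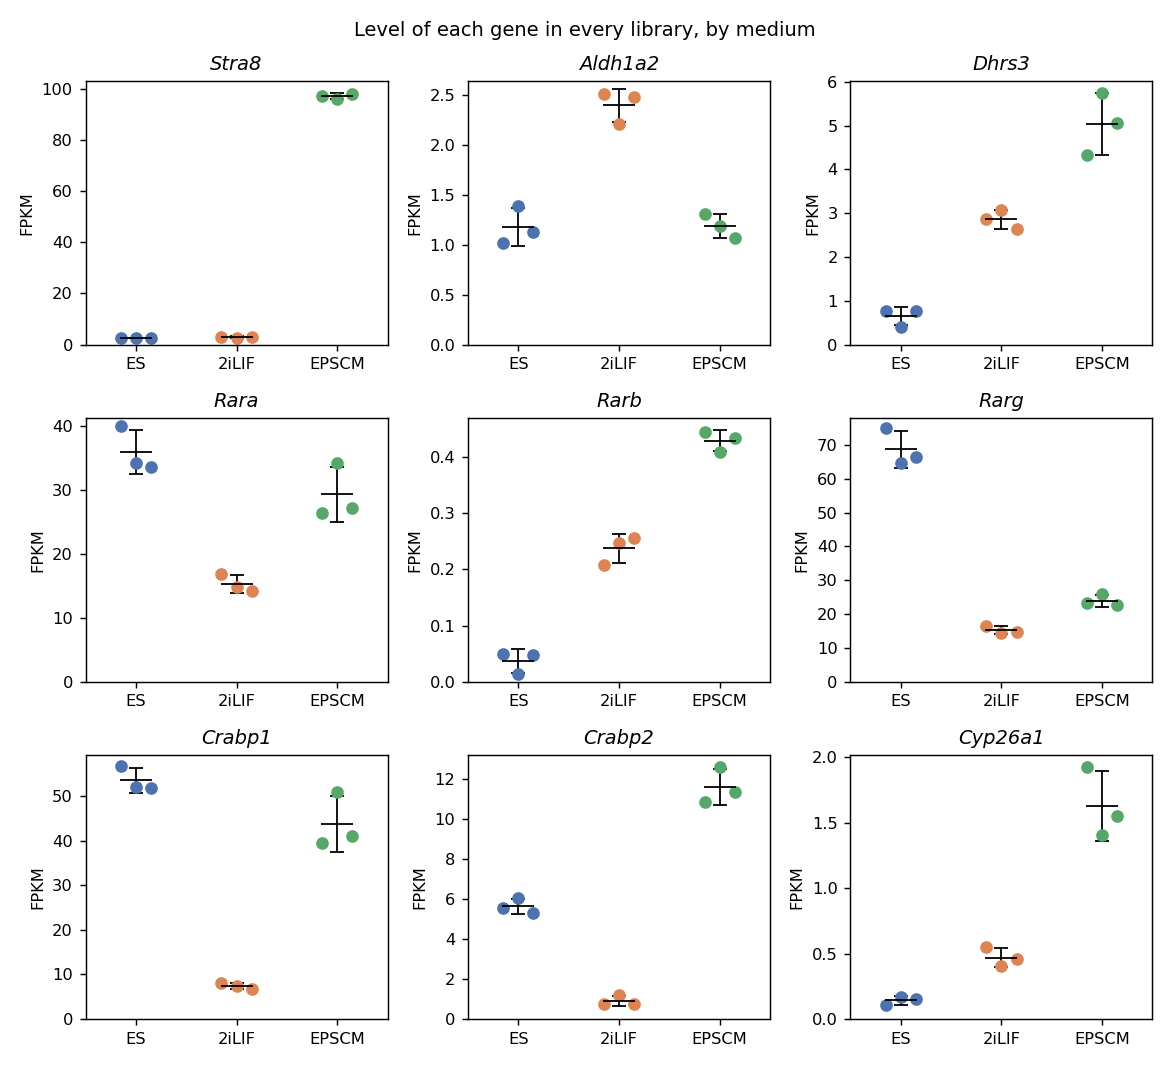
FPKM (vertical axis, linear, from 0, with a scale for each gene) of the 9 genes in each library of ES, 2iLIF and EPSCM; points are libraries, the wide line is the mean and the bars are ± SD (n = 3). Stra8 sits near 2.67 to 2.87 FPKM in ES and 2iLIF and at 97.1 in EPSCM, and 4 orders of the media occur among the 9 genes.

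The enzymes that set the supply of retinoic acid differed in another way. Aldh1a2, the retinaldehyde dehydrogenase that makes retinoic acid in the early embryo, measured 1.02, 1.39 and 1.13 FPKM in ES, 2.50, 2.20 and 2.47 in 2iLIF, and 1.30, 1.19 and 1.07 in EPSCM. The 2iLIF libraries were all above the other 6, and ES and EPSCM overlapped. On the log2(FPKM + 1) scale 2iLIF was 0.64 ± 0.08 above ES and EPSCM was 0.63 below 2iLIF (-0.63 ± 0.08). EPSCM and ES differed by 0.01 ± 0.08, a value that took the other sign (-0.24) under quantile normalization. Thus Aldh1a2, a low gene throughout, had about the same mean in EPSCM (1.19 ± 0.120 FPKM) as in ES (1.18 ± 0.190).

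Dhrs3, whose product reduces retinaldehyde, was lowest in ES and highest in EPSCM. It measured 0.765, 0.404 and 0.778 FPKM in ES, 2.87, 3.07 and 2.63 in 2iLIF, and 4.33, 5.75 and 5.05 in EPSCM, with no overlap between any pair of media. Mean levels of 0.649 ± 0.212, 2.86 ± 0.221 and 5.04 ± 0.706 FPKM put EPSCM at 7.77 times ES and 1.76 times 2iLIF. The log2(FPKM + 1) differences were 1.88 ± 0.12 for EPSCM against ES, 1.23 ± 0.12 for 2iLIF against ES and 0.64 ± 0.12 for EPSCM against 2iLIF. Dhrs3 overlaps Vps13d in the RefSeq annotation, and the sources used here do not state whether counting used strand. Vps13d differed by 0.83 between EPSCM and ES on the same scale.

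Both binding proteins were lowest in 2iLIF, and their proportions differed between media. Crabp1 measured 56.7, 52.1 and 51.8 FPKM in ES, 7.96, 7.44 and 6.75 in 2iLIF, and 39.4, 51.1 and 41.1 in EPSCM. All 2iLIF libraries lay far below the rest. The EPSCM libraries were all below those of ES, but replicate 2 only just, at 51.1 beside a lowest ES value of 51.8. Its log2(FPKM + 1) difference was -2.70 ± 0.10 in 2iLIF against ES, 2.41 ± 0.10 in EPSCM against 2iLIF and -0.29 ± 0.10 in EPSCM against ES.

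Crabp2, the carrier that delivers retinoic acid to the receptors, measured 5.54, 6.05 and 5.31 FPKM in ES, 0.751, 1.18 and 0.720 in 2iLIF, and 10.9, 12.6 and 11.3 in EPSCM. The 3 media did not overlap, with EPSCM highest. In mean level EPSCM was 2.06 times ES and 13.1 times 2iLIF. The differences were 0.92 ± 0.10 for EPSCM against ES, 2.75 ± 0.10 for EPSCM against 2iLIF and -1.82 ± 0.10 for 2iLIF against ES. The level of Crabp1 was 8.62 to 10.2 times that of Crabp2 in the ES libraries, 6.33 to 10.6 times in 2iLIF and 3.63 to 4.06 times in EPSCM. So the summed level of the pair was about as high in EPSCM (55.4 ± 7.18 FPKM) as in ES (59.2 ± 2.71), with a larger part of it from Crabp2.

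**Figure D2:**
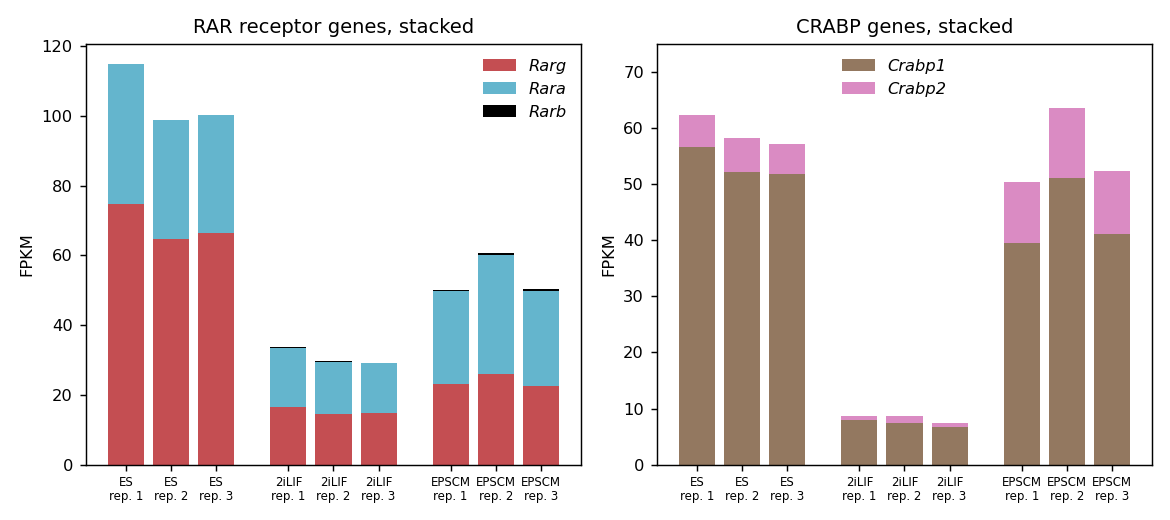
Stacked FPKM in each library (bars from 0, linear axis) of the receptor genes Rarg, Rara and Rarb on the left, and of Crabp1 and Crabp2 on the right. The receptor sum is 98.9 to 115 FPKM in ES, 29.3 to 33.7 in 2iLIF and 50.2 to 60.6 in EPSCM, and the Crabp2 part is largest in EPSCM.

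The receptors Rara and Rarg carried nearly all of the receptor transcript, and Rarb was near the limit of detection. Rarg, the most abundant receptor gene in ES, measured 74.9, 64.6 and 66.5 FPKM there, 16.6, 14.6 and 14.7 in 2iLIF, and 23.2, 25.9 and 22.6 in EPSCM. No media overlapped, and EPSCM stood much nearer to 2iLIF than to ES. The log2(FPKM + 1) differences were -2.10 ± 0.08 for 2iLIF against ES, -1.48 ± 0.08 for EPSCM against ES and 0.61 ± 0.08 for EPSCM against 2iLIF.

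Rara measured 40.0, 34.3 and 33.7 FPKM in ES, 16.9, 14.8 and 14.3 in 2iLIF, and 26.5, 34.3 and 27.2 in EPSCM. The 2iLIF libraries were lowest, and ES and EPSCM overlapped through 1 EPSCM library. Its differences were -1.18 ± 0.11 for 2iLIF against ES, 0.89 ± 0.11 for EPSCM against 2iLIF and -0.29 ± 0.11 for EPSCM against ES. Rarg made up 65.6% ± 0.657 of the summed level of the 3 receptor genes in ES, 49.6% ± 0.638 in 2iLIF and 44.7% ± 1.78 in EPSCM (SD, n = 3). Rara made up the larger part in EPSCM, at 54.5% ± 1.90. The receptor sum itself was 105 ± 8.89 FPKM in ES, 30.9 ± 2.48 in 2iLIF and 53.7 ± 5.96 in EPSCM.

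Rarb, the receptor gene that retinoic acid itself induces in many cells, stayed under 1 FPKM in all 9 libraries. It measured 0.0491, 0.0132 and 0.0484 FPKM in ES, 0.208, 0.247 and 0.256 in 2iLIF, and 0.444, 0.407 and 0.433 in EPSCM. These values do not overlap between media, with ES lowest and EPSCM highest. By the rough depth estimate the ES values rest on about 1.2 to 4.3 fragments, those of 2iLIF on about 17 to 25 and those of EPSCM on about 29 to 34. EPSCM was 1.81 times 2iLIF in mean level, and no fold is given against ES at this depth. Rarb lies on chromosome 14, where the median difference of all tested genes was -0.06 for EPSCM against ES and 0.08 for EPSCM against 2iLIF.

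Cyp26a1, which hydroxylates retinoic acid and so removes it, showed the same order at a somewhat higher level. It measured 0.103, 0.164 and 0.155 FPKM in ES, 0.548, 0.401 and 0.455 in 2iLIF, and 1.92, 1.40 and 1.55 in EPSCM. Every EPSCM library was above every 2iLIF library, and every 2iLIF library above every ES library. Mean levels of 0.141 ± 0.0330, 0.468 ± 0.0742 and 1.63 ± 0.269 FPKM put EPSCM at 11.6 times ES and 3.47 times 2iLIF. The ES values rest on about 5 to 9 fragments per library. On the log2(FPKM + 1) scale, which understates the differences of low genes, they were 1.20 ± 0.08 for EPSCM against ES, 0.84 ± 0.08 for EPSCM against 2iLIF and 0.36 ± 0.08 for 2iLIF against ES. With a pseudocount of 0.1 they were 2.84, 1.60 and 1.24, and under quantile normalization the value for EPSCM against 2iLIF was 0.48.

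Across the 9 genes, 4 had the order EPSCM, 2iLIF, ES from high to low: Stra8, Rarb, Cyp26a1 and Dhrs3, with 2iLIF and ES overlapping for Stra8. The order ES, EPSCM, 2iLIF was found for 3 genes, namely Rara, Rarg and Crabp1, with ES and EPSCM overlapping for Rara. Crabp2 was highest in EPSCM and lowest in 2iLIF, and Aldh1a2 was highest in 2iLIF. Of the 3 genes named above as direct receptor targets, all 3 were highest in EPSCM and lowest in ES, but their levels in EPSCM were 0.428 to 5.04 FPKM against 97.1 for Stra8.

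**Figure D3:**
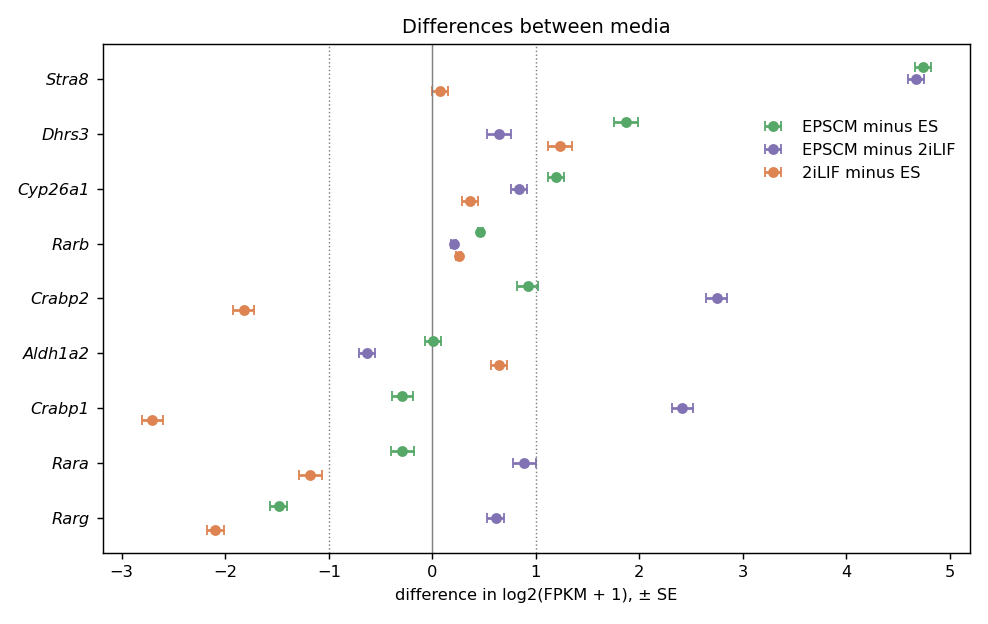
Differences between media on the log2(FPKM + 1) scale (horizontal axis) for the 9 genes, as points with ± SE bars from the fit over 9 libraries; dotted lines mark a difference of 1 in size, and Rarb comes from the fit without the filter. Stra8 lies at 4.74 and 4.67 in both EPSCM comparisons and at 0.07 in 2iLIF against ES, while Crabp1, Crabp2, Rara and Rarg lie at -2.70 to -1.18 in 2iLIF against ES.

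For a gene to count as changed, the adjusted p of limma had to lie under 0.05 and its log2(FPKM + 1) difference had to reach 1 in size. In EPSCM against ES, 3 of the 8 genes tested were past these limits in the higher direction (Stra8, Cyp26a1 and Dhrs3), where 11.7% of all tested genes were, and 1 in the lower direction (Rarg), where 7.97% were. In EPSCM against 2iLIF, 3 were past them as higher (Stra8, Crabp1 and Crabp2) against 10.1% of all genes, and 0 as lower against 5.91%. In 2iLIF against ES, 1 was past them as higher (Dhrs3) against 7.62%, and 4 as lower (Rara, Rarg, Crabp1 and Crabp2) against 7.12%. Libraries did not overlap between EPSCM and ES for 7 of the 9 genes (74.1% of all tested genes), between EPSCM and 2iLIF for 9 (71.1%) and between 2iLIF and ES for 8 (70.6%). Since the genes were chosen with these values known, nothing is read from these counts. The EPSCM comparisons share their EPSCM libraries, and each other pair of comparisons likewise shares 1 medium.

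One library of each medium stood apart from its other 2: replicate 1 of ES, replicate 1 of 2iLIF and replicate 2 of EPSCM. Correlations of log2(FPKM + 1) over the tested genes were 0.9959 to 0.9967 for the other pairs within a medium and 0.9855 to 0.9902 for pairs with such a library. That library was the highest of its medium in all 3 media for Rara, Rarg and Crabp1, at 1.09 to 1.28 times the mean of the other 2. Without the 3 libraries, or with them as a covariate, none of the 8 genes tested moved to the other side of the limits in any comparison. Libraries held a roughly estimated 22300000 to 32700000 fragments, and 11155 to 11764 genes reached 1 FPKM.

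Other genes of retinoid biology were taken from lists chosen with earlier results of these data known. They hold 123 genes in the table beyond the 9, of which 74 were tested. In EPSCM against ES, 20 of the 74 rose (27.0%, beside 11.7% of all tested genes) and 3 fell (4.05%, beside 7.97%), with a median difference of 0.37 on the log2(FPKM + 1) scale against 0.09 over all tested genes. In EPSCM against 2iLIF, 15 rose (20.3%, beside 10.1%) and 6 fell (8.11%, beside 5.91%), and the median was -0.00 against 0.03. In 2iLIF against ES, 10 rose (13.5%, beside 7.62%) and 5 fell (6.76%, beside 7.12%), with medians of 0.16 and 0.03. A few genes stand in more than 1 list, and some, Aldh1a3, Rbp7, Foxa1 and Zfp703 among them, passed the filter only through the medium where they were highest, so these counts are a description. Adjusted p-values below are limma's, over all 12330 tested genes.

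**Figure D4:**
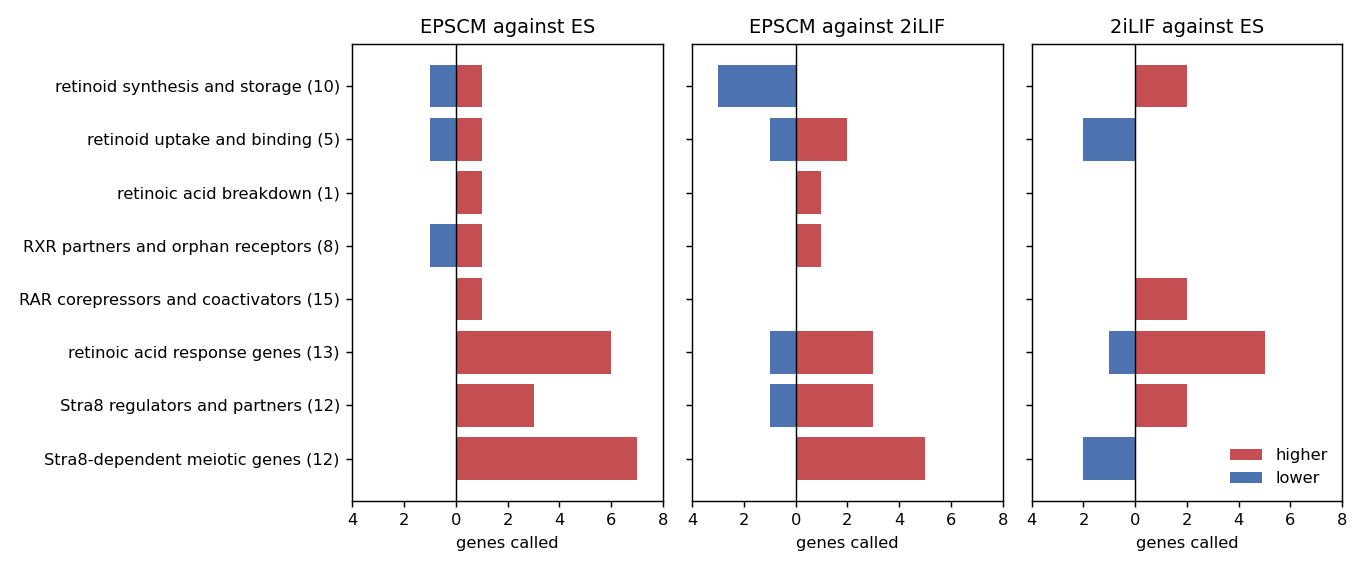
Number of tested genes of each retinoid or meiotic list (number tested in brackets) that rose, to the right of 0, or fell, to the left, in each comparison. In EPSCM against ES 7 of 12 meiotic genes and 6 of 13 retinoic acid response genes rose and none of either list fell. Some genes of both lists passed the filter only with the help of their EPSCM libraries.

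Of 10 tested genes of retinoid synthesis, 1 rose and 1 fell in EPSCM against ES, which is near the shares of all genes (11.7% and 7.97%). In EPSCM against 2iLIF 3 fell (5.91% of all genes), and in 2iLIF against ES 2 rose (7.62%). Rdh10, the main embryonic retinol dehydrogenase, measured 2.03 ± 0.327 FPKM in ES, 2.48 ± 0.146 in 2iLIF and 2.30 ± 0.541 in EPSCM and passed the limits in no comparison. Adh1, an alcohol dehydrogenase that can oxidise retinol, was at 0.0333 ± 0.0339 FPKM in ES, 7.61 ± 0.674 in 2iLIF and 1.54 ± 0.117 in EPSCM; it rose by 3.06 ± 0.07 in 2iLIF against ES (adjusted p = 4.4e-09). Dhrs4, a retinal reductase, fell in EPSCM against ES from 20.2 ± 1.20 to 4.33 ± 0.560 FPKM, or to 0.214 times the ES level (adjusted p = 1.4e-07). Aldh1a3, which like Aldh1a2 makes retinoic acid and which passed the filter through 2iLIF alone, was at 0.198 ± 0.0483 FPKM in ES, 1.73 ± 0.352 in 2iLIF and 0.192 ± 0.0198 in EPSCM. Its mean level, like that of Aldh1a2, was highest in 2iLIF.

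Among 5 tested genes of retinoid uptake and binding, Rbp4, the plasma retinol carrier, rose in EPSCM. It measured 1.70 ± 0.387 FPKM in ES, 0.428 ± 0.215 in 2iLIF and 6.43 ± 0.582 in EPSCM, a rise of 1.47 ± 0.14 over ES (adjusted p = 1.1e-05) and of 2.39 ± 0.14 over 2iLIF (5.7e-07). Fabp5, a fatty acid binding protein that can also carry retinoic acid, was lowest in 2iLIF, as both Crabp genes were: 39.5 ± 6.69, 12.3 ± 1.04 and 46.2 ± 4.45 FPKM in ES, 2iLIF and EPSCM. Rbp7, which passed the filter through ES alone, was at 1.77 ± 0.393 FPKM in ES, 0.248 ± 0.352 in 2iLIF and 0.188 to 0.253 in the EPSCM libraries. Stra6, the RBP4 receptor, was under the filter, with a mean of 0.360 FPKM in EPSCM and less in the other media.

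The related hydroxylase Cyp26b1 was also under the filter, at 0.142 ± 0.0235 FPKM in ES, 0.163 ± 0.00987 in 2iLIF and 0.267 ± 0.0599 in EPSCM. Cyp2s1, a P450 that has been linked to retinoic acid metabolism, rose in EPSCM to 20.4 ± 1.84 FPKM, from 7.68 ± 0.594 in ES (1.30 ± 0.09, adjusted p = 1.2e-06). Of 8 tested RXR partners and orphan receptors, 1 rose and 1 fell in EPSCM against ES (beside 11.7% and 7.97% of all genes), 1 rose in EPSCM against 2iLIF and none was past the limits in 2iLIF against ES. Rxra fell from 9.69 ± 0.519 FPKM in ES to 3.86 ± 0.404 in EPSCM (-1.14 ± 0.08, adjusted p = 2.4e-06) and was at 6.21 ± 0.519 in 2iLIF. Rxrb, the most abundant RXR gene, was at 31.4 ± 2.34, 22.5 ± 1.74 and 18.4 ± 1.29 FPKM and differed by -0.74 ± 0.08 in EPSCM against ES, within the limit of 1. The summed RXR level was lowest in EPSCM (22.3 ± 1.62 FPKM) and that of the RAR genes lowest in 2iLIF. Nr6a1, an orphan receptor that retinoic acid induces in differentiating stem cells, measured 8.65 ± 0.516 FPKM in ES and 18.8 ± 1.03 in EPSCM; its difference of 1.04 ± 0.07 (adjusted p = 2.0e-06) was 0.93 under quantile normalization, 0.94 with libraries scaled to 1 median ratio and 1.00, just under the limit, without replicate 1 of ES.

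Of 15 corepressors and coactivators of the receptors, 1 rose in EPSCM against ES (6.67%, beside 11.7% of all genes), none was past the limits in EPSCM against 2iLIF (10.1% of all genes higher and 5.91% lower) and 2 rose in 2iLIF against ES (13.3%, beside 7.62%). The gene that rose in EPSCM against ES was Nrip1, a corepressor that retinoic acid induces, which measured 0.792 ± 0.108, 3.23 ± 0.426 and 4.36 ± 0.203 FPKM in ES, 2iLIF and EPSCM. It thus had the order of media of Rarb, Cyp26a1 and Dhrs3. Kat2b, a histone acetyltransferase, rose in 2iLIF against ES by 1.33 ± 0.13 (adjusted p = 1.8e-05).

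Response genes of retinoic acid rose in part in both 2iLIF and EPSCM when each was set against ES. In EPSCM against ES 6 of 13 tested genes rose and 0 fell (11.7% and 7.97% of all genes), in 2iLIF against ES 5 rose and 1 fell (7.62% and 7.12%), and in EPSCM against 2iLIF 3 rose and 1 fell (10.1% and 5.91%). Meis2, a Hox cofactor, rose from 0.164 ± 0.00987 FPKM to 10.9 ± 0.0549 in 2iLIF and 7.01 ± 0.423 in EPSCM (adjusted p = 1.2e-09 and 3.0e-09). Cdx1, a caudal homeobox gene, was far highest in 2iLIF, at 83.7 ± 6.39 FPKM against 1.84 ± 0.237 in ES and 8.12 ± 0.512 in EPSCM. Both had their highest level in 2iLIF, where Rarb, Cyp26a1 and Dhrs3 were at a middle level and Stra8 was low.

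Bhlhe40 rose in EPSCM from 31.3 ± 0.593 FPKM in ES to 116 ± 2.19 (1.86 ± 0.05, adjusted p = 1.0e-08) and was lowest in 2iLIF. Tgm2, tissue transglutaminase, was at 16.6 ± 1.32, 6.45 ± 0.492 and 20.4 ± 2.01 FPKM and rose in EPSCM over 2iLIF by 1.52 ± 0.09 (adjusted p = 6.5e-07). Foxa1 passed the filter through EPSCM alone, at 1.31 ± 0.139 FPKM. The mean levels of Bhlhe40 and Tgm2 had the order of media seen for Crabp2.

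**Figure D5:**
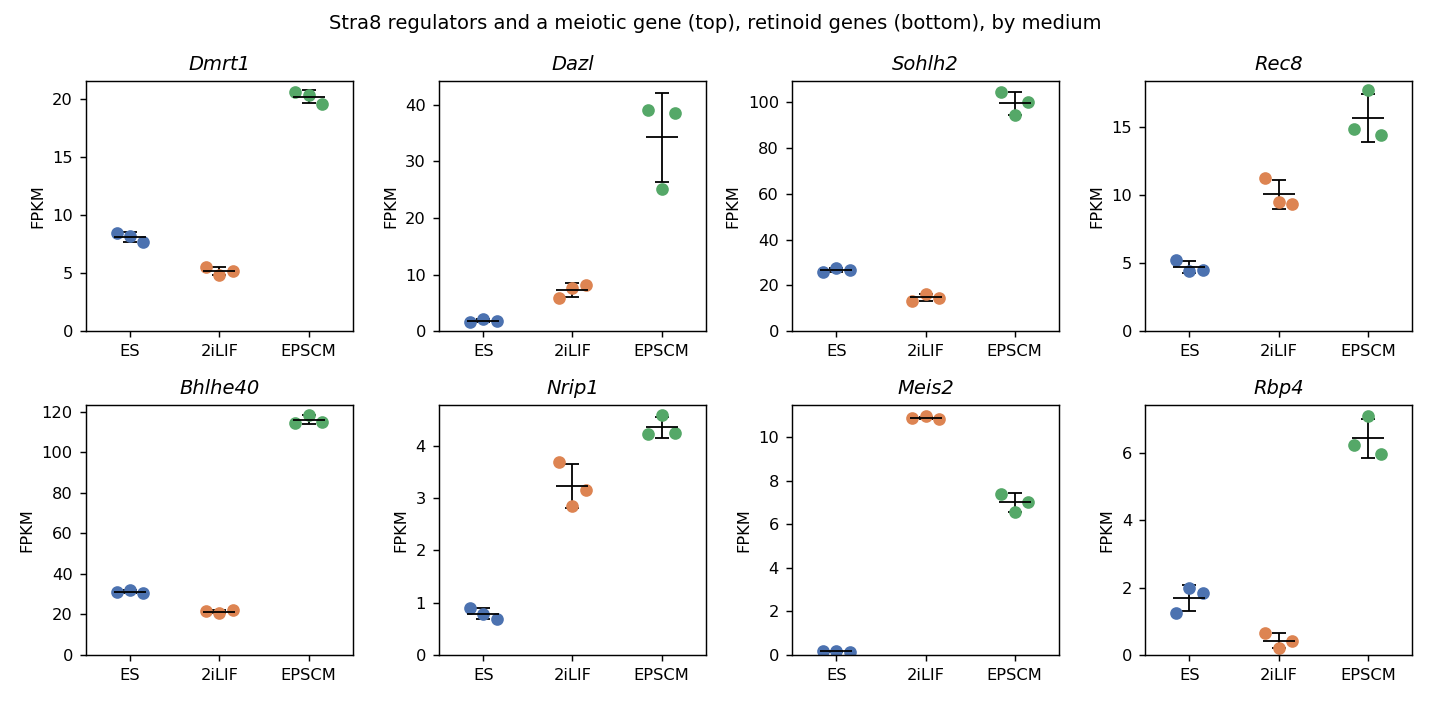
FPKM (vertical axis, linear, from 0) of 8 genes in each library of ES, 2iLIF and EPSCM, as points with the mean and ± SD (n = 3). Dmrt1, Dazl, Sohlh2 and Rec8 (top row) and Bhlhe40, Nrip1 and Rbp4 are highest in EPSCM, and Meis2 is highest in 2iLIF at 10.9 FPKM.

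Known regulators and partners of Stra8 were compared next. Of 12 tested, 3 rose and 0 fell in EPSCM against ES, where 11.7% and 7.97% of all genes did, and 3 rose and 1 fell in EPSCM against 2iLIF, where 10.1% and 5.91% did. Dmrt1, a regulator whose motif core lies in the Stra8 window printed above, measured 8.48, 8.23 and 7.69 FPKM in ES, 5.52, 4.83 and 5.20 in 2iLIF, and 20.7, 20.4 and 19.6 in EPSCM. It rose by 1.22 ± 0.06 over ES (adjusted p = 3.1e-07) and by 1.78 ± 0.06 over 2iLIF (3.8e-08). Dazl, an RNA-binding protein that germ cells need to respond to retinoic acid, measured 1.62, 2.19 and 1.80 FPKM in ES, 5.95, 7.65 and 8.25 in 2iLIF, and 39.0, 25.2 and 38.6 in EPSCM. The lowest EPSCM value is that of the library that stands apart, and it is still above all others. The rise was 3.60 ± 0.18 over ES (adjusted p = 2.3e-07) and 2.07 ± 0.18 over 2iLIF (7.9e-06). Sohlh2, a germ cell transcription factor, rose to 99.7 ± 5.08 FPKM in EPSCM from 26.6 ± 0.925 in ES and 14.7 ± 1.57 in 2iLIF. Nanos3, a germ cell RNA-binding protein, was highest in 2iLIF and fell in EPSCM against 2iLIF (-1.82 ± 0.09, adjusted p = 1.8e-07).

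The motif ACANTGT is common, and genes whose windows hold it were compared as a whole in EPSCM against ES. Of 447 tested, 12.8% rose and 9.40% fell, beside 11.7% and 7.97% of all tested genes. Of the 31 genes with a paired hexamer 5 bases apart, 4 were tested, and Cyp26a1 and Blvrb were past the limits as higher in EPSCM against ES. Cyp26a1 is one of the 9 genes and passed the filter only through EPSCM, so nothing is read from this count. In EPSCM against 2iLIF 0 of the 4 rose and 0 fell, and in 2iLIF against ES 1 rose and 1 fell.

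Meiotic genes, which in germ cells depend on STRA8 or are expressed with it, rose in EPSCM in part. The list holds 23 genes measured here, of which 12 were tested. Of these 12, 7 rose and 0 fell against ES (11.7% and 7.97% of all genes). Against 2iLIF 5 rose and 0 fell (10.1% and 5.91%), whereas in 2iLIF against ES 0 rose and 2 fell (7.62% and 7.12%). Smc1b, Hormad1 and Meioc passed the filter only with the help of their EPSCM libraries, so these counts are a description. The other genes of the list were under the filter. Among them, Spo11 was at 0.0543 FPKM in EPSCM, Meiob at 0.134, Sycp2 at 0.164 and Prdm9 at 0.669, while Mei1 was at 1.01 and Sycp1 at 1.15. Rec8, a meiotic cohesin that is also induced by retinoic acid, measured 4.73 ± 0.454 FPKM in ES, 10.1 ± 1.05 in 2iLIF and 15.7 ± 1.78 in EPSCM, a rise of 1.54 ± 0.10 over ES (adjusted p = 1.3e-06). Its order of media was that of Rarb, Cyp26a1 and Dhrs3. Dmc1, the meiotic recombinase, rose from 1.98 ± 0.580 to 8.75 ± 1.23 FPKM (1.72 ± 0.15, adjusted p = 6.7e-06). Meioc, needed for meiotic prophase, rose from 1.44 ± 0.420 to 5.57 ± 0.978 FPKM, and Syce2, of the synaptonemal complex, from 41.4 ± 4.83 to 117 ± 16.3. Sycp3, the axial element gene, was at 3.58 ± 0.348, 2.68 ± 0.502 and 4.95 ± 0.596 FPKM and passed the limits in no comparison.

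Markers of other cell types were read in the same libraries. The summed level of 10 germ cell markers was 58.4 to 61.1 FPKM in ES, 47.5 to 49.1 in 2iLIF and 105 to 116 in EPSCM. In EPSCM against ES 2 of its 9 tested genes rose, Dazl and Mael, and 0 fell, where 11.7% and 7.97% of all tested genes did. Dazl alone was at 34.3 ± 7.88 FPKM in EPSCM. The sum over 10 primitive endoderm markers was 7.46 to 8.05, 3.21 to 3.54 and 11.5 to 12.9 FPKM, with Sox17, Foxa2, Afp and Cubn under 1 FPKM everywhere. Of its 5 tested genes, Gata4 (to 3.22 FPKM) and Gata6 (to 3.17) rose in EPSCM against ES, and Sox7 fell. Gata6 passed the filter through EPSCM alone and Sox7 through ES alone. The neural sum was 71.4 to 80.4, 22.0 to 25.5 and 27.2 to 30.8 FPKM, mostly Tubb3, and 5 of its 10 markers were under 1 FPKM. Of its 5 tested genes, Nes rose in EPSCM against ES, and Tubb3 and Neurod1 fell. The trophoblast sum was 13.0 to 15.1, 57.1 to 66.3 and 27.4 to 32.7 FPKM, with Elf5, Gata3 and Krt7 under 1. Of its 6 tested genes, Esx1 (by 2.86 on the log2(FPKM + 1) scale) and Eomes (by 1.40) rose in EPSCM against ES, and 0 fell. Esx1 passed the filter only with the help of its EPSCM libraries. The fibroblast sum was 15.8 to 18.4, 3.96 to 4.36 and 11.8 to 14.7 FPKM. In that list 7 of 10 were under 1, the collagens Col1a1, Col1a2 and Col3a1 among them. Of its 2 tested genes, Pdgfrb rose (by 1.56) and Thy1 fell (by 1.13) in EPSCM against ES. All 10 embryonic stem cell markers were tested, and their sum was 6341 to 7660 FPKM in ES, 6744 to 8098 in 2iLIF and 4864 to 5693 in EPSCM. Dppa5a alone averaged 2985 FPKM in ES, 4149 in 2iLIF and 3393 in EPSCM. Of the 10 markers, 4 fell in EPSCM against ES, beside 7.97% of all tested genes, and 0 rose. The level fell to 0.0530 times that in ES for Utf1, 0.0924 for Tdh, 0.306 for Zfp42 and 0.463 for Pou5f1. In EPSCM against 2iLIF 3 fell (Tdh, Zfp42 and Klf4), beside 5.91% of all tested genes. In 2iLIF against ES 1 fell, Utf1, beside 7.12% of all tested genes, and 0 rose. The mean of Utf1 was 536 FPKM in ES and about as low in 2iLIF (28.1) as in EPSCM (28.4). The part of these differences in the levels of the 9 genes was not tested.

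Likeness of profile was measured as the root mean square distance between centred log2(FPKM + 1) values over the 9 libraries. Nearest to Stra8 was Tuba3b, an alpha tubulin gene, at a distance of 0.278; it measured 0.740 ± 0.0891 FPKM in ES, 1.71 ± 0.258 in 2iLIF and 52.9 ± 5.64 in EPSCM. Tuba3b has a near-identical copy, Tuba3a, so its level is uncertain. The next nearest were Adm (0.668), H2-Ab1 (0.688), Pdpn (0.690) and Acp5 (0.691), so among the genes considered only Tuba3b came closer than 0.668. Crabp2 and Crabp1, the genes with the next widest ranges, had many closer profiles. Those nearest to Crabp2 were Bmf (0.115), Aire (0.132), Fam162a (0.136), Pfkfb3 (0.163) and Nt5dc2 (0.163). Those nearest to Crabp1 were Elavl3 (0.107), Mfng (0.143), Adamts14 (0.143), Fbxo2 (0.145) and Dnmt3l (0.153), the last a partner of the de novo DNA methyltransferases.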

How the data were processed

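RNA of E14 mouse embryonic stem cells in 3 media was sequenced as stranded mRNA libraries, 3 per medium. The authors deposited 1 table of FPKM values for 24819 genes; STAR, Cuffnorm and the mm9 build are named in the submitters' processing notes, while versions, annotation, scaling and use of strand are not stated in the sources used here. FPKM holds no counts, so depth was only roughly estimated from the steps of low values (22300000 to 32700000 fragments, from transcript lengths of another annotation), and fragment numbers cover counting error only. The 12330 genes that reached 1 FPKM in 3 or more libraries were fitted on log2(FPKM + 1) with limma 3.58.1 in R 4.3.3: 1 fit over the 9 libraries, a trended empirical Bayes variance and Benjamini-Hochberg adjustment, checked on simulated data. A change means an adjusted p under 0.05 and a difference of at least 1 in size. Replicate numbers follow accession order and pair nothing. The 9 genes and all lists were chosen with earlier results of these data known. Named were the 9 genes, up to 4 changed genes per list and comparison (ranked by size of difference, with the higher medium averaging 1 FPKM or more), a set of key genes, the 5 nearest profiles of 3 genes, and 3 neighbours on each side of each gene. Meiosin was matched to no row and is not analysed here. Some genes that the rule names are not reported here. Promoter windows and gene order came from RefSeq (GRCm38.p6), by symbol (24734 matched, 465 of them by a synonym). Alternatives tried were the pseudocount, the filter, the scaling, leaving out libraries or chromosomes 1, 14 and Y, a covariate for the libraries that stand apart, and the fit on 2 media.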

Additional observations from a re-analysis of the deposited data

How the results depend on the processing

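Of 447 recomputed differences of the 8 genes tested, 427 moved by less than the SD between libraries and 20 by more. None of those past the limits changed sign. Rarb, which was under the filter, is not among them. Crabp2 in EPSCM against ES (1.03) and Cyp26a1 in both other comparisons were past the limit of 1 only with a pseudocount of 0.1. Over all tested genes, 2423 were changed in EPSCM against ES, 1979 in EPSCM against 2iLIF and 1817 in 2iLIF against ES. With a mean of at least 5 FPKM, which tests fewer genes, these were 1532, 1025 and 1055, and the counts of the retinoid and meiotic lists were 13, 11 and 6 in place of 23, 21 and 15. With a pseudocount of 0.1, 2iLIF against ES gave 2738 genes and 23 of the lists. Quantile normalization gave 1141 higher and 1162 lower in EPSCM against ES in place of 1440 and 983, 1010 and 902 in EPSCM against 2iLIF in place of 1250 and 729, and 14 and 9 of the lists there in place of 15 and 6. It moved the median of all genes in EPSCM against ES from 0.09 to 0.01. Among the 9 genes, Aldh1a2 in EPSCM against ES ranged from -0.24 to 0.08 over the alternatives, with a main value of 0.01. The sign changes among the other named genes were all of Rdh10. Its difference in EPSCM against ES changed sign under quantile normalization (-0.14). In EPSCM against 2iLIF it did so without the 3 libraries that stand apart (0.086) and without EPSCM replicate 2 (0.055). The latter was the highest value on leaving out 1 library, the lowest being -0.165. None of these was a call, and the cause was not tested. Foxa1 in EPSCM against 2iLIF was 0.90 under quantile normalization, and Rbp7 in 2iLIF against ES was -0.99 without the 3 libraries. Rec8 passed the limit in 2iLIF against ES with a pseudocount of 0.1 (1.07) and without ES replicate 1 (1.01). No paired analysis was possible because the labels give no number shared between media.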

Other observations

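The genes next to the 9 on their chromosomes were read as well. Of the 6 nearest tested genes around Stra8 on chromosome 6, 3 on each side, 1 changed in EPSCM against ES (Wdr91, by 1.26). Of all tested genes 19.7% changed there, 16.1% in EPSCM against 2iLIF and 14.7% in 2iLIF against ES. None of the 6 changed in the other comparisons, and their median difference in EPSCM against ES was -0.01. Igfbp4, an insulin-like growth factor binding protein next to Rara, rose by 3.51 in EPSCM over ES and by 5.52 over 2iLIF and fell by 2.01 in 2iLIF against ES. The neighbours of Crabp2 on 1 side, Nes (nestin) and Bcan (brevican), rose in EPSCM over ES by 1.48 and 1.55 and over 2iLIF by 1.75 and 2.05. Next to Cyp26a1 on chromosome 19 lies Rbp4, which rose by 1.47 over ES. Around Rarg, Itgb7 fell by 1.62 and Mfsd5 by 1.05 in EPSCM against ES. Around Rarb none of 6 changed in EPSCM against ES (19.7% of all tested genes did), and Nr1d2 fell by 1.05 in EPSCM against 2iLIF. The 6 neighbours of Dhrs3 on chromosome 4 were all higher in 2iLIF against ES, by 0.68 to 3.20 with a median of 1.01, and 3 changed. Dhrs3 itself differed by 1.23 there. In EPSCM against ES the 6 ranged from -0.15 to 1.99, and 2 changed, Gm13128 (1.99) and Tnfrsf1b (1.79), beside 1.88 for Dhrs3. In EPSCM against 2iLIF 1 changed, Gm13128 (-1.21). A link between Dhrs3 and its neighbours was not tested. Nothing is read from these counts of a few neighbours.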
